A study of Mus musculus with 35 samples.

Results

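The 8 genes *Tbr1*, *Emx1*, *Neurod6*, *Bcl11b*, *Lhx2*, *Lhx6*, *Dlx1* and *Eomes* encode transcription factors used as markers of forebrain neurons, and they were taken by symbol. They are 8 of the 55356 genes in the count table, and each was found in it. The libraries were made from rRNA-depleted total RNA of adult C57BL/6J mice, an inbred and genetically unmodified strain, with no treatment named. The 29 RNA-seq libraries fall into 10 groups of a tissue and a sex, namely brain, cerebellum, heart, colon and gonad (ovary or testis) of females and males, with 3 libraries per group except male heart, which had 2. The labels give no age beyond adult. They also do not say which regions the brain libraries hold or whether the cerebellum was removed from them, nor whether replicates came from separate animals, so *P* values measure the spread between these libraries, which may be technical.

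Total counts ranged from 11742417 to 36194255 per library, with a median of 24403774. The tissue labels were checked against marker genes. Levels are given as FPKM, which scales counts by the library total and by the union of exon lengths. *Snap25*, which encodes a synaptic membrane protein of neurons, stood at 849 FPKM in brain, at 539 FPKM in cerebellum and at most at 3.65 FPKM in the non-neural tissues. All 6 cerebellum markers were lower in brain. *Pcp2*, a Purkinje cell gene, was at 3.9 FPKM in brain and at 1400 FPKM in cerebellum. Their summed level in the brain libraries, 185.1 to 251 CPM (counts scaled by the library total alone), was above that of every non-neural library (0.4523 to 4.706 CPM) and below that of every cerebellum library (2448 to 4018 CPM).

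The forebrain arises from a dorsal part, the pallium, whose progenitors give glutamatergic projection neurons of cortex and hippocampus, and a ventral part, the subpallium, which gives GABAergic interneurons and the projection neurons of the striatum. Sequence-specific transcription factors set up these lineages, and many of them stay on in mature neurons, where they mark cell identity. Cerebellar neurons arise from the hindbrain under other factors of the same families. In bulk tissue, fewer cells of a type and less RNA per cell cannot be told apart.

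The loci lie on chromosomes 2 (*Lhx6*, *Lhx2*, *Tbr1* and *Dlx1*), 6 (*Neurod6* and *Emx1*), 9 (*Eomes*) and 12 (*Bcl11b*) of GRCm38. Thus 4 of 8 are on chromosome 2, which holds 8.4% of 21662 protein-coding genes. *Neurod6*, *Bcl11b*, *Lhx6* and *Dlx1* were counted on loci built from full-length Iso-seq transcripts, and the other 4 on ENSEMBL gene models. Iso-seq sampled the somatic tissues as a pool for each sex, so it does not tell in which tissue a transcript was seen. The start of the Iso-seq transcript differed from the nearest RefSeq start by 12 bases for *Lhx6* (upstream), 110 bases for *Bcl11b* (upstream), 384 bases for *Dlx1* (upstream) and 129 bases for *Neurod6* (downstream). RefSeq gives 11 promoter windows for the 8 genes (250 bases before to 50 after a start, GRCm38.p6), 3 of them for *Lhx6* and 2 for *Lhx2*. Their base composition ran from the 16.5th to the 95.8th percentile of all windows, from 43% G and C with 9 CpG pairs at *Bcl11b* to 74.7% with 34 CpG pairs at the first *Lhx2* start. The median of all 32851 windows was 52.7% with 7 CpG pairs. The sequences before the starts of *Lhx2*, *Neurod6* and *Eomes* are shown because no annotated exon covers them and they set the CpG-rich *Lhx2* start beside the CpG-poorer starts of a brain-enriched gene (*Neurod6*) and of the gene higher in cerebellum (*Eomes*), with CpG pairs in capitals (GRCm38.p6, 5′ to 3′ on the strand of the gene).
Lhx2, chr2:38339031-38339280, plus strand: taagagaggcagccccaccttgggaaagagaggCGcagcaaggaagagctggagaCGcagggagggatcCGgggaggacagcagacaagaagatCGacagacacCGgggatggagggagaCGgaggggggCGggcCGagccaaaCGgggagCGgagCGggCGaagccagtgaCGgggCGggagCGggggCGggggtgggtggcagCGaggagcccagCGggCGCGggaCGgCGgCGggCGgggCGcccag
Neurod6, chr6:55681264-55681513, minus strand: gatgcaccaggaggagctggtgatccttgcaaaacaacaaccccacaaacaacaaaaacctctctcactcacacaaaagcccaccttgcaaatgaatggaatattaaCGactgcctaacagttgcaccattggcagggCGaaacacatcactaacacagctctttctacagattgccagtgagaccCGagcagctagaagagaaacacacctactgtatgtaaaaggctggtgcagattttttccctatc
Eomes, chr9:118477939-118478188, plus strand: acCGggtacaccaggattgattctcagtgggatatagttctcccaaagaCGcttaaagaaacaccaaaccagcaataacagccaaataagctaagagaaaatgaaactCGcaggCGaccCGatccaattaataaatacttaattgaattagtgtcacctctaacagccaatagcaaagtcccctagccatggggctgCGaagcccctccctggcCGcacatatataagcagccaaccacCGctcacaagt
These stretches of 250 bases hold 25, 3 and 8 CpG pairs, in that order. *Lhx2* and *Neurod6* are both brain-enriched genes in the values given next, so the brain-enriched genes did not share a base composition here.

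Known binding motifs were searched on both strands of the 11 windows. The homeodomain motif TAATTA occurred only at *Tbr1*, at 33 and at 18 bases before the start, and in 5.29% of all windows. The T-box motif GGTGTGA occurred in none of the 11 and in 3.98% of all windows. The neurogenic E-box CAGATG occurred only at the second *Lhx2* start, at 25 bases after it, against 17.2% of all windows. The TATA box letters TATAAA occurred 5 bases before the *Bcl11b* start and 3 bases after the third *Lhx6* start, against 13.6% of all windows. Both lay on the strand opposite to the gene. Only the exact letters of each motif were searched, so variants of it were not counted. These matches are letters in a window and not evidence of binding.

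Brain against cerebellum and against the non-neural tissues were the comparisons named with the list, and both share the 6 brain libraries. In brain against cerebellum, 7 of the 8 genes were higher in brain and *Eomes* was lower, where 15.3% of 29911 tested genes were called higher and 10.8% lower (adjusted *P* under 0.05, edgeR quasi-likelihood test, Benjamini-Hochberg over all tested genes). The log2 differences ran from -2.28 for *Eomes* and 2.60 for *Neurod6* to 8.35 for *Dlx1*, with a median of 5.43 beside a median of 0 over all genes. Against the mean of heart, colon, ovary and testis, 8 of 8 were higher in brain, where 34.3% of tested genes were called higher and the median over all genes was -0.14. This average runs over tissues in which several of the 8 had no counts, and a fitted fold change against such a tissue is no measurement, so ratios of pooled counts per unit of depth are given in its place. Brain exceeded the 17 non-neural libraries 707 times for *Tbr1* (95% interval 550 to 924, counting error only, as for the others), 159 times for *Dlx1* (119 to 217) and 49.1 times for *Lhx2* (44.3 to 54.6). The ratio was 23.9 for *Bcl11b* (22.6 to 25.3), 6.69 for *Lhx6* (6.11 to 7.33) and 2.97 for *Eomes* (2.46 to 3.59). For *Eomes* the libraries overlapped, with the lowest brain library at 0.138 FPKM and the highest non-neural library at 0.376 FPKM. *Neurod6* and *Emx1*, with few or no counts outside the nervous system, are given below.

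**Figure D1:**
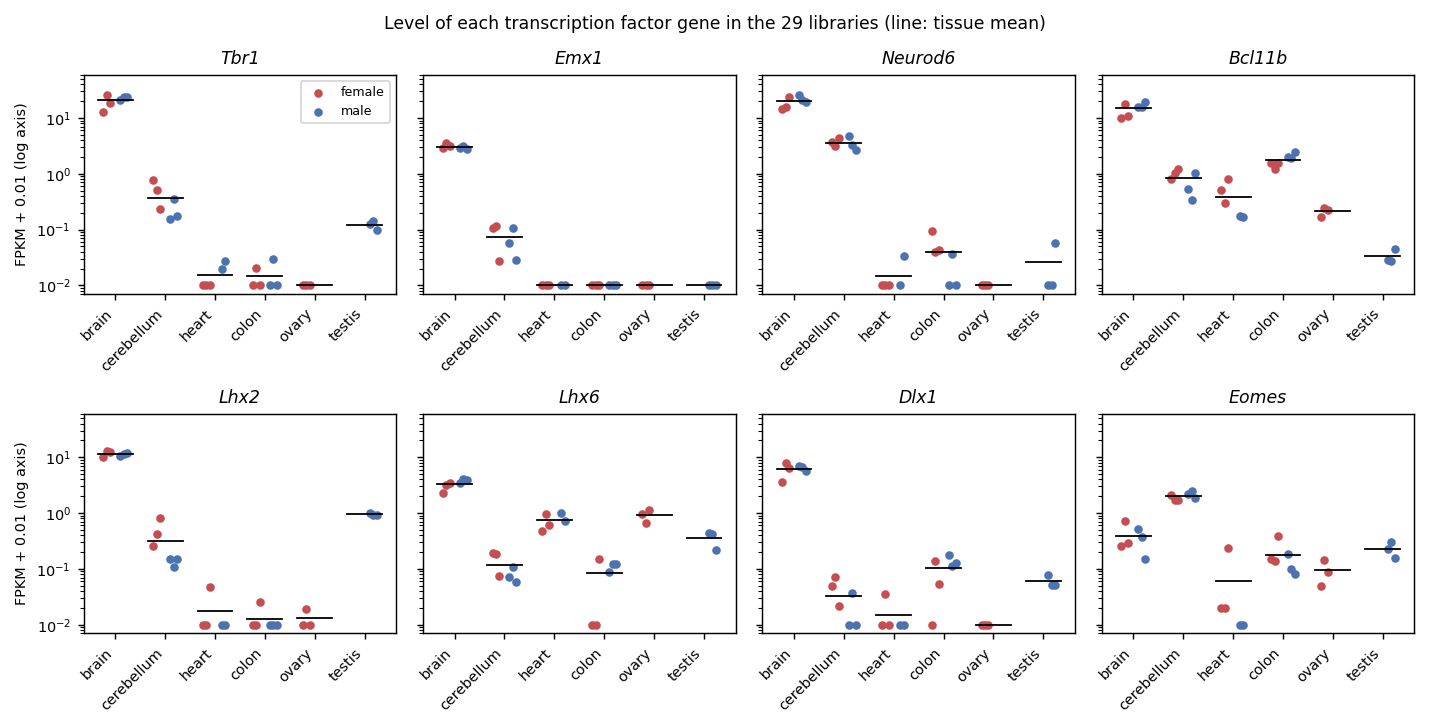
FPKM + 0.01 (log axis) of the 8 genes in each of the 29 libraries, by tissue, with females in red, males in blue and the tissue mean as a line; libraries with no count sit at 0.01. For 7 genes the 6 brain libraries lie above all other libraries, and for *Eomes* the 6 cerebellum libraries, from 1.71 to 2.45 FPKM, lie above all others.

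*Tbr1*, a T-box factor of postmitotic cortical projection neurons, had the highest mean brain level of the list, 21.1 ± 4.73 FPKM (SD, n = 6). The brain libraries held 1820 to 4760 counts with a median of 3077, and the cerebellum libraries 15 to 101 counts with a median of 39. The groups did not overlap, and the lowest brain library was 16.9-fold above the highest cerebellum library in FPKM. The log2 difference was 6.12 (SE 0.30, adjusted *P* = 1.75e-12). Outside the nervous system *Tbr1* was close to absent, with 61 counts over 17 libraries, of which 55 lay in testis (18, 22 and 15 counts). No count fell in the 3 ovary libraries, where the lowest brain library was at least 426-fold higher than the level of 3 counts in a library.

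*Emx1*, a homeobox gene of the dorsal telencephalon, was lower but steadier in brain, at 3.06 ± 0.275 FPKM (SD, n = 6). The brain libraries held 148 to 248 counts with a median of 175, the cerebellum libraries 1 to 6 counts. The log2 difference was 5.68 (SE 0.41, adjusted *P* = 7.9e-08). *Emx1* had 0 counts in all 17 non-neural libraries and was the only one of the 8 of which this held. Against the level of 3 counts, which reached 0.117 FPKM in the shallowest of them, the lowest brain library was at least 23.8-fold higher.

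*Neurod6*, a basic helix-loop-helix factor of pyramidal neurons, was nearly as high as *Tbr1* in brain, at 20 ± 4.43 FPKM (SD, n = 6), and it kept the largest share of its brain level in cerebellum among the 7 genes that were higher in brain. The brain libraries held 744 to 1531 counts with a median of 1127.5, and the cerebellum libraries 133 to 236 counts with a median of 169. Cerebellum thus stood at 3.61 ± 0.759 FPKM (SD, n = 6), or 18.1% of the brain mean, where the other 6 ranged from 0.375% (*Dlx1*) to 5.54% (*Bcl11b*). The groups did not overlap, and the log2 difference was 2.60 (SE 0.22, adjusted *P* = 9.6e-09). The non-neural libraries held 9 counts in all and at most 3 in a library. Per unit of depth the brain count was 1660 times theirs (95% interval 872 to 3620, counting error only).

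*Bcl11b* encodes a zinc-finger factor of subcerebral cortical projection neurons and of striatal projection neurons, and is also known from T lymphocytes. Brain stood at 14.8 ± 3.68 FPKM (SD, n = 6), with 1440 to 3208 counts and a median of 2435. Cerebellum stood at 0.822 ± 0.338 FPKM (SD, n = 6), with 44 to 187 counts and a median of 124. The log2 difference was 4.33 (SE 0.23, adjusted *P* = 3.78e-13), and the libraries did not overlap. Unlike *Tbr1*, *Emx1* and *Neurod6*, it had counts in every one of the 29 libraries.

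*Lhx2*, a LIM-homeobox gene of cortical progenitors and of the hippocampus, varied least among the brain libraries, at 11.5 ± 1.02 FPKM (SD, n = 6), a coefficient of variation of 8.84%. The brain libraries held 1169 to 1787 counts with a median of 1354.5, and the cerebellum libraries 10 to 96 counts with a median of 20.5. The log2 difference was 5.67 (SE 0.28, adjusted *P* = 6.8e-13). The cerebellum libraries differed widely among themselves, from 0.0963 to 0.807 FPKM, and yet none came near the lowest brain library at 10.3 FPKM. The antisense genes *Gm27197* and *Gm13584* lie within the locus and share 0 exon bases with it.

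*Lhx6*, a LIM-homeobox gene of interneurons born in the medial ganglionic eminence, stood at 3.36 ± 0.619 FPKM in brain (SD, n = 6), with 201 to 491 counts and a median of 306. The cerebellum libraries held 4 to 15 counts with a median of 7. The groups did not overlap, and the log2 difference was 5.18 (SE 0.39, adjusted *P* = 1.85e-10).

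*Dlx1*, a distal-less homeobox gene of the subpallium, was almost absent from cerebellum and gave the largest fold difference of the list. The brain libraries held 291 to 754 counts with a median of 556.5, which is 6.2 ± 1.48 FPKM (SD, n = 6), and the cerebellum libraries 0 to 5 counts, 11 in all. The log2 difference was 8.35 (SE 0.48, adjusted *P* = 8.01e-12), and the ratio of pooled counts per unit of depth was 259 (95% interval 145 to 519, counting error only). The antisense gene *Dlx1as* shares 335 exon bases with it. *Dlx1as* had 92 to 271 counts in the brain libraries and 2 to 12 in the cerebellum libraries, 35.3% and 409% of the *Dlx1* counts. In heart, colon and testis its counts were 1150%, 137% and 92.9% of those of *Dlx1*. The ovary libraries held 4 to 16 counts of *Dlx1as* and 0 of *Dlx1*. The libraries were strand-specific, but the sources used here do not name the strand option used for counting, so reads of this pair may not be fully told apart.

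*Eomes* ran the other way. It encodes the T-box factor of intermediate progenitors of the developing cortex, is known in adults from olfactory bulb projection neurons and from unipolar brush cells of the cerebellum, and also marks cytotoxic lymphocytes. The cerebellum libraries held 173 to 241 counts with a median of 192.5, or 2 ± 0.291 FPKM (SD, n = 6). The brain libraries held 14 to 84 counts with a median of 43, or 0.376 ± 0.206 FPKM (SD, n = 6). The groups did not overlap, and the log2 difference was -2.28 (SE 0.41, adjusted *P* = 0.00014). Of all *Eomes* counts in the 29 libraries, 72% lay in cerebellum and 16.1% in brain. The antisense gene *Gm33460* shares 118 exon bases with it and had 11 to 21 counts in the cerebellum libraries and 2 to 7 in the brain libraries, 8.58% and 9.4% of the *Eomes* counts.

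Of 18 T and NK lymphocyte genes, 4 were higher in brain, 1 was lower (*Cd5*, -1.44, SE 0.49) and 13 were not called. Their median log2 difference was -0.81, on the side of *Eomes*, and their summed level ran the other way, at 18.7 to 31.04 CPM in the brain libraries and 7.317 to 15.59 CPM in the cerebellum libraries. The part of lymphocytes in the *Eomes* difference was not tested. The 4 higher ones were *Cd4* (3.64, SE 0.34), *Cd6* (3.77, SE 0.54), *Zap70* (1.58, SE 0.34) and *Tcf7* (0.93, SE 0.34). Among markers of olfactory bulb and hippocampus, 4 of 8 were higher in brain, 1 was lower and 3 were not called. *Tbx21*, an *Eomes* relative of olfactory bulb projection neurons and lymphocytes, had 3 to 10 counts in the brain libraries.

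In brain the levels per length fell from *Tbr1* over *Neurod6*, *Bcl11b*, *Lhx2*, *Dlx1*, *Lhx6* and *Emx1* to *Eomes*. Only some neighbours in this order were separated in every library. *Lhx2* exceeded *Dlx1* in 6 of 6 brain libraries (ratio of means 1.86), *Dlx1* exceeded *Lhx6* in 6 of 6 (1.85, with overlapping ranges) and *Emx1* exceeded *Eomes* in 6 of 6 (8.14). *Tbr1* exceeded *Neurod6* in 3 of 6, *Neurod6* exceeded *Bcl11b* in 5 of 6, *Bcl11b* exceeded *Lhx2* in 4 of 6 and *Lhx6* exceeded *Emx1* in 4 of 6, and the ranges of these neighbours overlapped. The order depends on the length used. With the longest transcript in place of the union of exons, *Tbr1* came to 29 FPKM, *Bcl11b* to 27.7, *Lhx2* to 17.8 and *Emx1* to 4.28, and *Emx1* then stood above *Lhx6*, which stayed at 3.36. In cerebellum the order was another, with *Neurod6* first at 3.61 FPKM, above *Eomes* in 6 of 6 libraries, and *Eomes* above *Bcl11b* in 6 of 6.

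The 6 brain libraries were not alike for these genes. Female brain replicate 1 was the lowest of the 6 for *Tbr1* (12.9 FPKM), *Neurod6* (14.3), *Bcl11b* (10), *Lhx2* (10.3), *Lhx6* (2.31) and *Dlx1* (3.58), and in TMM-scaled log2 CPM it lay below the brain mean for all 8, by -0.149 (*Emx1*) to -0.824 (*Dlx1*). *Bcl11b* was also low in female replicate 3 (10.8 FPKM) and highest in male replicate 3 (19.3 FPKM). The 6 striatum markers, among them the dopamine receptor gene *Drd1*, summed to 337.6 and 409.5 CPM in female replicates 1 and 3 and to 587.8 to 922.2 CPM in the other 4 brain libraries. The 12 thalamic and hypothalamic regulators ran opposite, at 144.4 and 135.1 CPM in the same females and at 26.22 to 86.18 CPM in the others. This list also reached 194.5 to 285.9 CPM in ovary, 106.8 to 157.6 CPM in colon and 130.7 to 135.5 CPM in testis. It was at 20.52 to 43.65 CPM in heart, and its sum is thus not specific to these regions. The olfactory bulb and hippocampus markers summed to 132.7 to 160.9 CPM, but the same list reached 434.3 to 715.5 CPM in heart and 183.6 to 293.1 CPM in colon, so its sum is not specific to these regions. What these differences owe to the region sampled was not tested. Coefficients of variation over the 6 libraries ran from 8.84% (*Lhx2*) and 9% (*Emx1*) to 24.8% (*Bcl11b*) and 54.7% (*Eomes*), beside a median of 13.5% over 15232 tested genes at 1 FPKM or more in brain. Leaving out any brain or cerebellum library in turn kept 7 genes higher and 1 lower, and the log2 difference of *Dlx1* then ran from 8.07 to 9.66 and that of *Eomes* from -2.60 to -2.10.

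**Figure D2:**
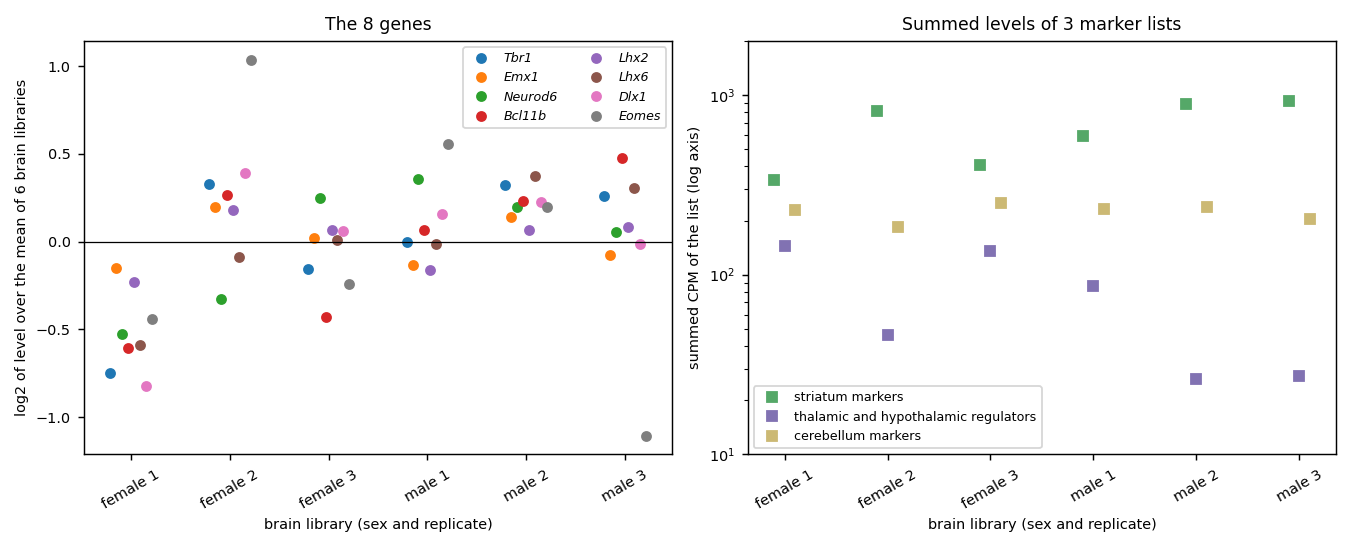
Left, TMM-scaled log2 CPM of each of the 8 genes minus its mean in the 6 brain libraries, by library; right, summed CPM (log axis) of 3 marker lists in the same libraries. In female replicate 1 all 8 genes lie below 0, and the striatum sum is lowest (337.6 CPM) and the thalamic and hypothalamic sum highest (144.4 CPM) there. The thalamic and hypothalamic list also summed to 194.5 to 285.9 CPM in ovary, which is not shown.

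The closest relatives of the 8 genes differed in direction within families. Of 11 relatives, 7 were higher in brain, 1 was lower and 3 were not called. In the distal-less family *Dlx2*, *Dlx5* and *Dlx6* were all higher in brain, by 7.36, 7.45 and 7.22 on the log2 scale (SE 0.66, 0.65 and 0.52), beside 8.35 for *Dlx1*. *Emx2*, the partner of *Emx1* in dorsal forebrain patterning, was higher by 7.70 (SE 0.38), but unlike *Emx1* it was at 19.2 FPKM in ovary, above its 8.87 FPKM in brain. Of the LIM-homeobox relatives, *Lhx8*, a gene of basal forebrain cholinergic neurons, was higher by 7.31 (SE 0.87), and *Lhx9* was not called (0.32, SE 0.59, adjusted *P* = 0.812). *Bcl11a* was higher by 2.07 (SE 0.21) and *Tbx21* by 2.55 (SE 0.68), the latter at only 0.0861 FPKM in brain.

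In the neurogenic differentiation family *Neurod6* alone was called higher in brain. *Neurod1*, known from cerebellar granule cells, had a log2 difference of -3.55 (SE 0.21, adjusted *P* = 1.59e-11) and stood at 2.33 FPKM in brain and 29.8 FPKM in cerebellum. Its count row is an Iso-seq locus to which the deposited map assigns 2 genes, so these values belong to both together. *Neurod2* (-0.18, SE 0.22) and *Neurod4* (0.23, SE 0.73) were not called, and *Neurod2* was at 10.9 FPKM in brain and 13.6 FPKM in cerebellum. The differences of differences within the families were not tested.

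**Figure D3:**
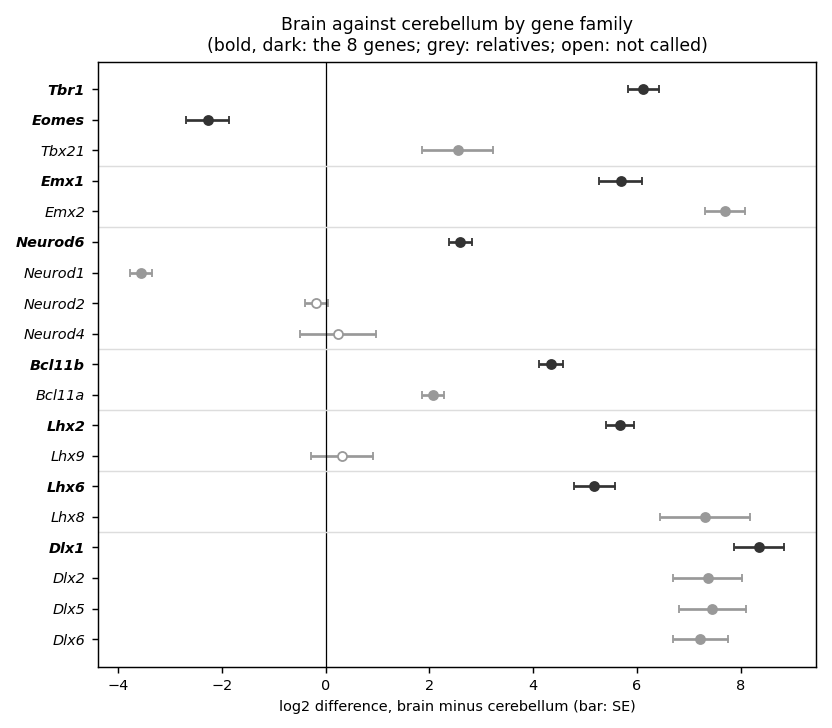
log2 difference between brain and cerebellum (positive: higher in brain) with its SE, for the 8 genes in bold and dark and 11 relatives in grey, grouped by family; open points were not called. *Dlx1* lies at 8.35 with its 3 relatives between 7.22 and 7.45, while *Eomes* (-2.28) and the locus of *Neurod1* (-3.55) lie on the cerebellum side.

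Other regulators of forebrain neurons were less separated than the 8 genes. Of 20 glutamatergic regulators, 14 were higher in brain than in cerebellum, 3 were lower and 3 were not called, with a median log2 difference of 1.07. *Mef2c* was higher by 3.65 (SE 0.18) and *Lmo4* by 1.92 (SE 0.14). The 3 lower genes were *Etv1* (-1.19, SE 0.15), *Bhlhe22* (-0.80, SE 0.24) and *Zbtb18* (-0.34, SE 0.12). Of 22 GABAergic regulators, 12 were higher, 3 were lower and 7 were not called, with a median of 1.01. *Nkx2-1* (6.54, SE 0.81), a gene of the interneuron lineage, *Isl1* (5.10, SE 0.70) and *Meis2* (2.45, SE 0.29) were among the higher genes, and *Ebf1* (-2.96, SE 0.25), *Npas3* (-0.90, SE 0.24) and *Maf* (-0.57, SE 0.16) were lower.

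Regulators of cerebellar development ran the other way. Of 20, 19 could be tested, and 17 of them were lower in brain, 1 was higher (*Gbx2*, 2.14, SE 0.72) and 1 was not called, with a median of -2.24. *Lhx1*, a Purkinje cell gene of the same LIM-homeobox family as *Lhx2* and *Lhx6*, had a log2 difference of -5.10 (SE 0.39), the midbrain and hindbrain gene *En2* of -4.84 (SE 0.42), *Meis1* of -2.21 (SE 0.12) and *Rora* of -1.30 (SE 0.14). Of 12 thalamic and hypothalamic regulators 9 could be tested, with 3 higher in brain, 1 lower and 5 not called. The lower one was *Irx1* (-2.47, SE 0.57). Of the higher ones, *Lef1* differed by 1.61 (SE 0.33), and *Fezf1* and *Nr5a1* had no counts in cerebellum and stood at 0.223 and 0.0126 FPKM in brain. The striatum markers were higher in brain in 5 of 6 cases, with a median of 4.39. Brain neuron markers were higher in 6 of 7, and *Gad1*, which makes GABA, was lower (-0.64, SE 0.20).

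The genes differed in how many counts they had outside the nervous system. *Tbr1*, *Emx1*, *Neurod6* and *Dlx1* had between 0 and 61 counts over the 17 libraries, and *Bcl11b*, *Lhx2*, *Lhx6* and *Eomes* had 1286, 381, 632 and 197. Brain was called higher for all 8 against heart, colon and ovary, where 35.1%, 38.7% and 31.2% of tested genes were higher, and for 7 of 8 against testis, where 31.2% were. The exception was *Eomes*, at 14 to 84 counts in brain and 26, 37 and 19 in testis (log2 difference 0.57, SE 0.52, adjusted *P* = 0.336).

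Among the non-neural tissues, *Bcl11b* was highest in colon. The colon libraries held 102, 117 and 127 counts in females and 213, 202 and 181 in males, or 1.78 ± 0.427 FPKM (SD, n = 6), which is 12% of the brain mean and above the cerebellum mean of 0.822 FPKM. Every colon library was above every heart, ovary and testis library, from 1.23 FPKM upwards against at most 0.782 FPKM in heart. Colon against the other non-neural tissues gave a log2 difference of 3.74 (SE 0.22, adjusted *P* = 1.49e-13), where 26.8% of tested genes were higher and the median over all genes was -0.27. In this comparison 2 of the 8 genes were higher (*Bcl11b* and *Dlx1*), 1 was lower (*Lhx6*) and 5 were not called. DESeq2 called 2 lower, where it called 31.5% of its tested genes lower, and it also called *Eomes* higher (1.24, adjusted *P* = 0.0181). In edgeR without testis replicate 3, *Neurod6*, with 5 counts in colon, was called higher (2.62, adjusted *P* = 0.0246). The count of genes higher ranged from 2 to 3 over the alternatives. *Dlx1* had 0 to 10 counts in the colon libraries, 30 in all, and 0 in all 3 ovary libraries, so its fold is not given. The T and NK lymphocyte markers were higher in colon in 12 of 18 cases, and 1 was lower. Their summed level was 35.13 to 104.5 CPM in colon, 66.2 to 79.14 CPM in ovary, 16.08 to 83.75 CPM in heart and 19.76 to 24.14 CPM in testis. Enteric neuron markers were higher in colon in 8 of 10 cases, with sums of 73.32 to 111.4 CPM. Their sums were 41.42 to 76.78 CPM in ovary, overlapping colon, 66.16 to 71.82 CPM in testis and 12.34 to 23.43 CPM in heart. The part of either in the colon level was not tested.

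*Lhx2* was present in testis. The testis libraries held 126, 125 and 124 counts, 375 of the 381 non-neural counts, and no other non-neural library held more than 4. Testis stood at 0.949 ± 0.0514 FPKM (SD, n = 3), 8.24% of the brain mean and above every cerebellum library, the highest of which was at 0.807 FPKM. *Tbr1* also had most of its non-neural counts in testis, 90.2%. Testis against the other non-neural tissues called 4 of the 8 higher (*Tbr1*, *Lhx2*, *Dlx1* and *Eomes*) and 1 lower (*Bcl11b*, 16-fold), where 41.7% of tested genes were called higher and 27% lower, so the count of 4 is near the background. The count was 5 without female colon replicate 3, which added *Lhx6* (1.01, adjusted *P* = 0.0317), and 5 without testis replicate 1 or replicate 2, which added *Neurod6* (adjusted *P* = 0.0472 and 0.045). The antisense gene *Gm13584* had 22 to 33 counts in testis, 20.8% of the *Lhx2* count, and 1 to 5 in brain, 0.2% of it.

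Among the 7 genes higher in brain than in cerebellum, *Lhx6* kept the largest share of its brain level in heart, ovary and testis. Ovary held 57, 56 and 106 counts (0.907 ± 0.227 FPKM, SD, n = 3), heart 38, 81 and 49 in females and 66 and 49 in males (0.746 ± 0.229 FPKM, SD, n = 5), and testis 41, 43 and 22. Colon held 0, 0 and 7 in females and 5, 7 and 5 in males. Ovary was thus at 27% and heart at 22.2% of the brain mean, and colon at 2.19%. Heart against the other non-neural tissues gave a 3.99-fold higher level (adjusted *P* = 5.8e-06), ovary a log2 difference of 1.17 (SE 0.35, adjusted *P* = 0.00919) and colon -3.35 (SE 0.41, adjusted *P* = 1.06e-07), where 21.6%, 22.7% and 28.4% of tested genes were called in the same direction. Without female colon replicate 3 the female colon group had no *Lhx6* count, and the fitted differences, which then depend on the treatment of 0 counts, moved to 2.82 for heart and -5.83 for colon. Without ovary replicate 3 the ovary call was lost (0.95, adjusted *P* = 0.0858). In heart 2 of the 8 were called higher (*Lhx6* and *Bcl11b*, 1.02, SE 0.28) and 1 lower (*Eomes*, with 25 counts in 5 heart libraries, 23 of them in female replicate 3), where 29.3% of tested genes were lower. These comparisons average log levels over tissues, so the *Bcl11b* call in heart rests on its low level in testis (0.0237 FPKM) and ovary (0.202), while heart (0.379) was below colon (1.78). In ovary 1 was higher (*Lhx6*) and 0 were lower, where 18.1% of tested genes were lower. DESeq2 called 4 of the 8 lower in ovary, where it called 29.4% of its tested genes lower. In edgeR 1 of the 8 (*Bcl11b*) was below 0 with an unadjusted *P* under 0.05 (0.0321), as were 20.4% of tested genes.

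The cerebellum libraries set apart the genes that were low there. Against the non-neural tissues, 6 of the 8 were higher in cerebellum, where 32.7% of tested genes were. *Neurod6* stood out, with 1041 counts in cerebellum and 9 in the 17 non-neural libraries, and *Eomes* with 1189 and 197. *Lhx6* was lower in cerebellum than in the non-neural mean (-1.99, SE 0.36, adjusted *P* = 2.94e-05), where 24.8% of tested genes were lower. This call rests on female colon replicate 3, the only female colon library with *Lhx6* counts, and without it that group had no count left and the fit gave no usable error (adjusted *P* = 1). In counts, *Lhx6* was at 0.0483 to 0.184 FPKM in cerebellum and at 0.463 to 0.998 FPKM in heart, without overlap, but colon, at 0 to 0.141 FPKM with a mean of 0.0734, overlapped cerebellum and had the lower mean. *Dlx1* was not called, with 11 counts in cerebellum and 46 in the non-neural libraries (log2 difference 0.46, SE 0.42, adjusted *P* = 0.404).

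**Figure D4:**
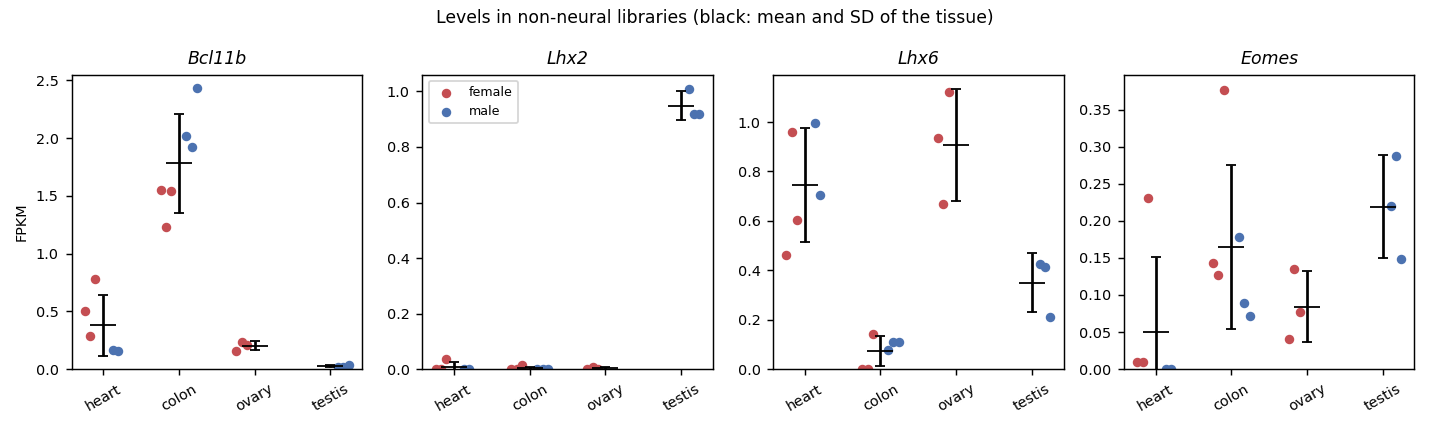
FPKM of *Bcl11b*, *Lhx2*, *Lhx6* and *Eomes* in the 17 non-neural libraries (females red, males blue), with the mean and SD of each tissue in black; each panel has its own axis, which starts at 0 and cuts the SD bar of *Eomes* in heart. *Bcl11b* is highest in the 6 colon libraries (mean 1.78 FPKM), *Lhx2* in the 3 testis libraries (0.949), and *Lhx6* is lowest in colon (0.0734).

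Males and females were compared within brain and within cerebellum. None of the 8 genes was called in brain, where 0.0368% of tested genes were called, and 0 had an unadjusted *P* under 0.05, beside 4.83% of tested genes. DESeq2 called 0 of 8, where it called 0.211% of its tested genes. Their log2 differences, males minus females, ran from -0.24 (*Eomes*, SE 0.58) to 0.47 (*Bcl11b*, SE 0.28). In cerebellum, edgeR called 0 of 8, where 0.0301% of tested genes were called, and 3 had an unadjusted *P* under 0.05, namely *Lhx2*, *Tbr1* and *Bcl11b*, beside 3.06% of tested genes. DESeq2 called 1 of 8, *Lhx2*, where it called 0.0854% of its tested genes. Estimates were below 0 for 7 of the 8 genes in cerebellum, all but *Eomes*, and for 49.5% of tested genes.

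*Lhx2* had 26, 47 and 96 counts in the female cerebellum libraries and 12, 10 and 15 in the male ones. The sexes did not overlap, at 0.245 to 0.807 FPKM and 0.0963 to 0.143 FPKM, but the females spread widely. The log2 difference was -1.93 (SE 0.40, unadjusted *P* = 7.97e-05, adjusted *P* = 0.183), and DESeq2 gave -1.93 with an adjusted *P* of 0.000441. In edgeR the difference ran from -2.23 without female cerebellum replicate 1 (adjusted *P* = 0.0274) to -1.40 without female cerebellum replicate 3, the library with 96 counts (adjusted *P* = 1). *Tbr1* had 101, 70 and 33 counts in females and 15, 45 and 22 in males, with overlap (-1.16, SE 0.41, adjusted *P* = 1). The test of whether brain against cerebellum differed between the sexes called 0 of 8 genes (edgeR, and 0 by DESeq2), where 0% of tested genes were called by edgeR and 0.0134% by DESeq2, and 3 had an unadjusted *P* under 0.05, beside 3.98% of tested genes. *Lhx2* had an estimate of 1.91 (SE 0.50, unadjusted *P* = 0.000948, adjusted *P* = 1).

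The pattern of each gene over the 10 group means was compared with that of 16624 other protein-coding genes (Pearson's *r* of log2(FPKM + 0.1), a description over 10 points that share libraries within a tissue). *Tbr1* was most like *Kcnj4* (*r* = 0.996), *Six3* (0.993) and *Drd1* (0.989), and *Emx1* most like *Fezf2* (0.998) and *Drd1* (0.996). *Neurod6* was most like *Cpne6* (0.998), *Sgcz* (0.997) and *Cnih3* (0.997), which were likewise present in cerebellum, at 4.48, 0.852 and 1.47 FPKM. *Dlx1* was most like its neighbour *Dlx2* (0.998), then *Gpr6* (0.988) and *Oxt* (0.983). *Lhx2* was most like *Krt77* (0.994), *Senp7* (0.993) and *Icam5* (0.990), and *Lhx6* most like *Rasl10a* (0.991), *Grasp* (0.946) and *Plekhg5* (0.944). *Bcl11b* was most like *March1* (0.976), *Nrarp* (0.966) and *Rasgrp2* (0.965), and *Eomes* most like *Tmem129* (0.976), *Ccdc85c* (0.973) and *Appl2* (0.966), whose highest non-neural levels were 6.6, 7.58 and 20 FPKM. Among the 8 genes themselves, *Tbr1* and *Emx1* were most alike (0.987), and *Eomes* and *Lhx6* least (-0.301).

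Tissue specificity was summarised by tau, which is 0 for an even level over the 6 tissues and 1 for a gene seen in a single tissue. *Emx1*, *Tbr1* and *Dlx1* had 0.996, 0.995 and 0.994, *Lhx2* 0.978, *Neurod6* 0.963 and *Bcl11b* 0.957. *Eomes* had 0.911 with its highest level in cerebellum, and *Lhx6* was the least specific at 0.87. The median of 16520 protein-coding genes was 0.679. The second tissue differed among the brain-enriched genes, being cerebellum for *Tbr1*, *Emx1* and *Neurod6*, colon for *Bcl11b* and *Dlx1*, testis for *Lhx2* and ovary for *Lhx6*.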

How the data were processed

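RNA-seq was made from rRNA-depleted total RNA of adult mouse tissues with a strand-specific (dUTP) kit. The authors deposited raw counts of reads per gene, without normalization, on an annotation that joins Iso-seq transcripts with ENSEMBL genes. The submitters' processing notes name HISAT2 2.0.5 and featureCounts 1.6.3 and mm10, and the strand setting is not given in the sources used here. The 6 Iso-seq runs entered only through the annotation.

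Each of the 8 genes was mapped to its count row through the deposited map. FPKM was computed from counts, the library total and the union of exon lengths. Counts were tested with edgeR 4.0.16 in R 4.3.3 (TMM, filterByExpr, quasi-likelihood test) in a single fit of 29 libraries and 10 group means, which kept 29911 genes, with Benjamini-Hochberg adjustment over all of them and calls at an adjusted *P* under 0.05. The test was checked on simulated data. DESeq2 1.42.0, other scaling, no filter, a 2-fold rule, other library sets, blocks and leaving out each library were the alternatives. Genes at 0 were set against 3 counts per library. Intervals and this limit cover counting error only. No library pair of a group was identical (28 pairs, chi-square per degree of freedom at least 10.1).

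The genes, lists and tests were chosen with earlier results of these data known. The genes named are the 8, their relatives, up to 4 per list and direction with the smallest adjusted *P*, and the 3 most similar genes of each. Markers named as label checks and lymphocyte genes by library were added to show what moved with a result. Some genes that this rule names are not reported here. Promoter sequences came from RefSeq (GRCm38.p6), with windows for 8 of 8 genes.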

Additional observations from a re-analysis of the deposited data

Results flagged for a closer look

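In groups of 4 to 10 libraries of a tissue, the lowest or highest library was tested for standing apart from the others (Dixon's criterion), which chance alone meets in about 1 in 20 groups, and 30 gene and tissue groups were tested. In 6 a library stood apart, but in 4 of these it was the only library with a count, which meets the criterion by construction, so the 6 are not set against the chance rate. *Eomes* in female heart replicate 3 was at 0.231 FPKM (23 counts), where the other heart libraries were at 0 to 0.0099 FPKM. The same library had the highest lymphocyte marker sum of the heart libraries (83.75 CPM, others 16.08 to 55.96 CPM), with 154 *Cd8a* and 129 *Cd3e* counts. *Eomes* in female colon replicate 3 was at 0.376 FPKM (23 counts), where the other colon libraries were at 0.0722 to 0.178 FPKM, and its lymphocyte marker sum of 46.98 CPM lay within their range. *Bcl11b* was also highest in female heart replicate 3 among the heart libraries (105 counts). The part of lymphocytes in these values was not tested.

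The other 4 rest on 1 to 4 counts in a tissue where the other libraries had 0. They were *Lhx2* in female heart replicate 3 (0.0379 FPKM, 4 counts), *Lhx2* in female colon replicate 3 (0.0155 FPKM, 1 count), *Dlx1* in female heart replicate 2 (0.0253 FPKM, 2 counts) and *Neurod6* in male heart replicate 2 (0.024 FPKM, 1 count).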

How the results depend on the processing

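The calls of brain against cerebellum (7 genes higher, 1 lower) and of brain against the non-neural tissues (8 higher) were the same under every alternative run, and no call reversed in direction. Estimates that were not called could change sign, as for *Dlx1* in cerebellum against the non-neural tissues (-0.86 to 0.82). Changes of calls lay in comparisons among the non-neural tissues, of cerebellum with them, and of the sexes in cerebellum. With median-ratio size factors, ovary against the other non-neural tissues had 1 gene lower (*Bcl11b*, -0.91). With DESeq2 it had 4 lower (29.4% of its tested genes), colon had 2 lower (31.5%) and male against female cerebellum had 1 lower (*Lhx2*), and the 4 in ovary were *Tbr1*, *Bcl11b*, *Lhx2* and *Dlx1*, of which *Tbr1* and *Dlx1* had no counts there. Leaving out a library in turn, genes higher in ovary ranged from 0 (without female gonad replicate 3) to 1, genes lower in ovary from 0 to 1 (without female heart replicate 2, *Bcl11b* -0.80), genes lower in male cerebellum from 0 to 1 (without female cerebellum replicate 1) and genes lower in cerebellum than in the non-neural tissues from 0 (without female colon replicate 3, where that group had no *Lhx6* count left) to 1. *Eomes* in colon against the other non-neural tissues (1.36, adjusted *P* = 0.0549) was called under several alternatives, among them median-ratio size factors (1.46, adjusted *P* = 0.0384), DESeq2 (1.24, adjusted *P* = 0.0181) and leaving out female heart replicate 3 (1.78, adjusted *P* = 0.00413). With the longest transcript as length, the brain means moved to 29 (*Tbr1*), 4.28 (*Emx1*), 27.7 (*Bcl11b*) and 17.8 FPKM (*Lhx2*). The causes were not tested.

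Same-numbered brain and cerebellum libraries of a sex did not deviate together (*r* from -0.0298 to 0.0847 over 6 pairs), so the number is not taken as a pairing. Libraries that share the first digit of their code in the labels, which for males are the same-numbered ones, did not deviate together either (*r* from -0.0363 to 0.0408 over 5 pairs), and a block by that code left 7 genes higher and 1 lower. A fit with the replicate block left 7 genes higher and 1 lower in brain against cerebellum and changed the count of genes higher in ovary from 1 to 0 (*Lhx6*, 1.07, adjusted *P* = 0.0623). Depth limits *Emx1*, *Dlx1* and *Neurod6* outside the nervous system, where a library of 11742417 counts cannot show levels under about 3 counts.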
